A study of Mus musculus with 10 samples.

Results

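The epidermal keratins are described here through 10 mouse genes. Krt5, Krt14 and Krt15 are keratins of the basal layer, Krt1, Krt10 and Krt77 are keratins of the suprabasal layers, and Krt6a, Krt6b, Krt16 and Krt17 are keratins that epidermis makes under stress and after wounding. The members were chosen by gene symbol: every probe set that the platform annotation gave to exactly 1 of these symbols was taken, which found 15 of the 45037 probe sets on the array. Krt14 and Krt6a were each read by 3 probe sets, Krt17 by 2 and each other member by 1. A further probe set shared by Krt14 and Krt17 was left out.

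Keratins are the intermediate filament proteins of epithelia, and each filament is built from pairs of an acidic type I and a basic type II keratin. In resting epidermis, basal keratinocytes make the type II keratin Krt5 with the type I keratins Krt14 and Krt15. Cells that leave the basal layer to differentiate make Krt1 and Krt77 (type II) with Krt10 (type I). Krt6a and Krt6b (type II) with Krt16 and Krt17 (type I) are made by the hair follicle and, after injury or when keratinocytes are put in culture, by interfollicular keratinocytes.

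RNA from mouse skin keratinocytes was hybridised to 10 Affymetrix mouse expression arrays in 4 groups. The cultured groups were 3 control and 3 KO samples, and the freshly isolated groups were 2 control and 2 KO samples. Control keratinocytes are labelled RhoA fl/+ K5 cre and KO keratinocytes RhoA fl/fl K5 cre, so both genotypes carry a floxed RhoA allele and a Cre that the keratin 5 promoter drives in basal keratinocytes, and the control is not free of Cre although its titles name it wild type. RhoA is a small GTPase that controls the actin cytoskeleton. No animal or age is named in the labels, which speak of biological replicates, so each p-value rests on the spread from array to array.

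Values are the deposited probe set intensities (signal units) on a linear scale. The fresh and the cultured arrays lie on different scales: the median probe set had 64.1 to 64.8 units on the fresh arrays and 7.75 to 8 on the cultured arrays, and the brightest probe set 31541 to 32618 and 111660 to 123446. KO and control were therefore compared within a condition, and conditions were compared by the percentile rank of a probe set within its own array (100 is the brightest). The files give no detection call, so a probe set below the median of its array is said only to be low, and the number of arrays limits the precision. The keratinocyte markers fixed for the check were above the array's median on all 10 arrays (8 of 8). The probe set standing for Rhoa read 11249, 9879 and 9240 on the cultured control arrays against 8209, 7839 and 7628 on the cultured KO arrays, lower in KO without overlap (log2 change -0.35, adjusted p = 0.156 by limma). The fresh control arrays gave 3526 and 4059 units for it, and the fresh KO arrays 4398 and 4296 units. Rhoa was thus not lower on the fresh arrays labelled KO, and the other bright probe set of the gene read the same way in both conditions. It is not known here whether these probe sets fall in the floxed part of the gene, and so whether they can check the labels. Every fresh comparison below sorts arrays by their labels only. Fresh KO replicate 2 stood apart in hair follicle transcripts: the summed intensity of the hair follicle sheath keratins was 28673 there, 443 on fresh KO replicate 1, and 966 and 501 on the fresh control arrays. Fresh results for members are given for each array beside that fact. The summed Langerhans cell and myeloid markers (8 of 8 genes matched) were 23676 and 18824 units on the fresh control arrays, 15802 on fresh KO replicate 1 and 7716 on fresh KO replicate 2, lower in KO without overlap, and 39.3 to 40.0 on all cultured arrays. The summed melanocyte markers (8 of 8) were 1382 and 1287 units in fresh control, 1578 and 5057 units in fresh KO, 402 to 621 units in cultured control and 569 to 1461 units in cultured KO. The summed fibroblast markers (7 of 7) were 2007 and 1775 units in fresh control, 2195 and 2570 units in fresh KO, 68.9 to 109 units in cultured control and 125 to 199 units in cultured KO, higher in KO without overlap in both conditions. The summed sebaceous markers (3 of 4) were 507 and 436 units in fresh control and 379 and 315 units in fresh KO. On every cultured array 2 of the 7 fibroblast markers were above the array's median.

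The 250 bases before the transcription start are shown for the 4 members that RefSeq's mouse promoter table (GRCm38.p6) holds, 2 basal and 2 suprabasal, because the ranks of these members moved very differently between fresh and cultured cells. All 4 genes lie on the minus strand, with Krt5 at chr15:101712906-101713155, Krt14 at chr11:100206031-100206280, Krt10 at chr11:99389365-99389614 and Krt77 at chr15:101869706-101869955. Each line runs 5′ to 3′ and ends at the base before the start.
Krt5: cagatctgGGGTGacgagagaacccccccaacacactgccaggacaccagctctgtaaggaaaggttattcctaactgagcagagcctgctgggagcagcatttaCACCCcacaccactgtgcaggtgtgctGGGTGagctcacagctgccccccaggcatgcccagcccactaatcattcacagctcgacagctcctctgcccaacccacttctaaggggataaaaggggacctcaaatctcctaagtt
Krt14: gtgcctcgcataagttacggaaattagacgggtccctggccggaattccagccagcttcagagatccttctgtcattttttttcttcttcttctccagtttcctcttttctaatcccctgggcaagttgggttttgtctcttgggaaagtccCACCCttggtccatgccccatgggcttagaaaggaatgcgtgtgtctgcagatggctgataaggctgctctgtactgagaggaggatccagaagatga
Krt10: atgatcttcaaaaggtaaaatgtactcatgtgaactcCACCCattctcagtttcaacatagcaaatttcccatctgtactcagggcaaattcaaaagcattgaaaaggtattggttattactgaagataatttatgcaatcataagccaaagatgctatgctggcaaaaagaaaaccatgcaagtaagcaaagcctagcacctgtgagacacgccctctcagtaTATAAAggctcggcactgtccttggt
Krt77: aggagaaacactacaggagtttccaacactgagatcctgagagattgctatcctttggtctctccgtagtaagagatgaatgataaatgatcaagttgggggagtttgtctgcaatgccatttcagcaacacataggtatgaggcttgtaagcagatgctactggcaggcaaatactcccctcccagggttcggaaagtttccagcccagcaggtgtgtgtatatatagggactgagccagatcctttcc
Capitals mark matches, on either strand, to a TATA box (TATAAA), an AP-1 site (TGANTCA), an AP-2 site (GCCNNNGGC) or a CACCC box (CACCC), where N is any base. The Krt5 window held 3 CACCC boxes, and the Krt14 window held 1. Krt10 had 1 TATA box, whose first base lies 26 bases before the start, and 1 CACCC box, while no match was found in the Krt77 window. Among all 32851 windows of this length in the table, 12.4% held TATAAA, 6.75% the AP-1 letters, 13.7% the AP-2 letters and 52% CACCC. The matches are a description of these letters only.

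The order of the keratins within the array differed widely between fresh and cultured keratinocytes. The suprabasal keratins and Krt15 ranked near the top of every fresh array and far lower in culture, Krt6a, Krt6b and Krt16 ranked higher in culture, and Krt5, Krt14 and Krt17 ranked near the top in both. By limma on the ranks, 8 of 10 members passed an adjusted p of 0.05 in the contrast of both cultured groups with both fresh groups, 3 higher and 5 lower in culture. The background was high: 89.7% of all probe sets passed in this contrast, 46.2% higher and 43.6% lower, so the count itself is not a result about keratins and the sizes are what describe them. Condition and the way its arrays were processed cannot be told apart.

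Krt5 and Krt14, the pair of the basal layer, stayed within the brightest probe sets. Krt5 held positions 48 to 80 from the top on the fresh arrays and 101 to 167 on the cultured arrays. Its rank differed by -0.153 percentile points (SE 0.0761), which did not pass (adjusted p = 0.0864, limma). Krt14, on a probe set marked as cross-hybridising in its name, held positions 14 to 47 and 79 to 143. Its rank fell by 0.181 points (SE 0.075, adjusted p = 0.0475, limma), a call that was not made within control arrays alone (adjusted p = 0.161) or within KO arrays alone (adjusted p = 0.124), nor when ranks were taken over named genes only (adjusted p = 0.226). It was also lost when any 1 array other than cultured control replicate 1 was left out. The other bright Krt14 probe set differed by -0.016 points (adjusted p = 0.846, limma) with the conditions overlapping, while the dim one fell by 13.6 points (adjusted p = 1.09e-06, limma), so the 3 probe sets gave different sizes. Krt15, the other type I keratin of basal cells and also a keratin of the follicle bulge, did not share this. It held positions 98 to 134 on the fresh arrays and positions 36164 to 43502 in culture, where its percentile was 3.36 to 19.6. Its rank fell by 91.7 points (SE 3.4, adjusted p = 1.71e-08, limma).

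The suprabasal keratins fell as a class. Krt10, the type I keratin of differentiating cells, was among the 8 brightest probe sets on every fresh array (positions 4 to 8) and at positions 8117 to 10324 in culture. It fell by 20.7 points (SE 0.48, adjusted p = 7.79e-10, limma) and its cultured percentiles of 77.1 to 82.0 were still in the upper part of the array. Krt77, a type II keratin of the suprabasal layers, went from positions 6 to 13 to positions 27218 to 39215, and fell by 77.9 points (SE 2.76, adjusted p = 1.24e-08, limma). Krt1, the usual type II partner of Krt10, went from positions 132 to 270 to positions 17945 to 40428. It fell by 62.4 points with the largest error among the members (SE 10.2, adjusted p = 0.000387, limma). Krt1 spread from percentile 10.1 to 60.2 over the 6 cultured arrays. It was above the array's median on 3 of them. Krt10 thus stayed above the median on all cultured arrays where Krt77 and Krt15 were below it on all. In bulk samples, fewer cells of a type and less RNA per cell cannot be told apart.

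Among the stress keratins, Krt6b moved over the widest span, from percentiles 53.8 to 72.0 in fresh cells to 89.1 to 97.8 in culture, a rise of 33.7 points (SE 3.36, adjusted p = 1.46e-05, limma). Krt6a was already at 83.2 to 91.9 in fresh cells and reached 99.7 to 99.9 in culture, which placed it between positions 64 and 124 (rise of 13.4 points, SE 0.74, adjusted p = 2.56e-07, limma). The other Krt6a probe sets, at 69.7 to 85.1 in fresh cells, rose by 20.4 and 26.5 points. Krt16 rose by 11.8 points (SE 0.916, adjusted p = 2.55e-06, limma) from 83.1 to 90.2 to 96.9 to 99.3. None of these 3 genes overlapped between conditions, against 43.1% of all probe sets higher in culture without overlap and 40% lower. Krt17 differed from them: its percentile was 99.1 on all fresh arrays and 98.5 to 99.6 in culture, the conditions overlapped, and the difference was 0.0476 points (SE 0.182, adjusted p = 0.81, limma). Without cultured control replicate 1, Krt17 differed by -0.09 points, and by -0.49 points within control arrays alone (adjusted p = 0.0120, limma). Krt17 is also a keratin of the hair follicle and was the only one of the 4 stress keratins within the top 419 positions of every fresh array.

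**Figure D1:**
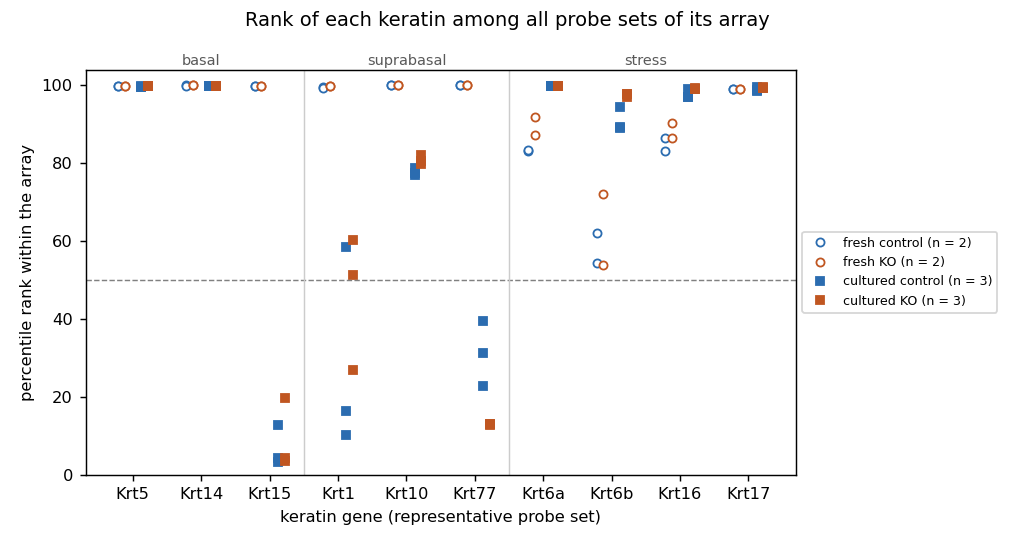
Percentile rank of each member's probe set within its array (vertical axis, 100 is the brightest) on the fresh and cultured arrays, control and KO; each point is 1 array and the dashed line marks the array's median. Krt15, Krt1, Krt10 and Krt77 are lower in culture, Krt6a, Krt6b and Krt16 are higher, and Krt5, Krt14 and Krt17 stay near 100 in both.

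The shift was seen in both genotypes. Within control arrays 7 members passed and within KO arrays 7, against 85.7% and 85.1% of all probe sets. Krt10 fell by 22.3 points in control and fell by 19.2 points in KO. Krt77 fell by 68.8 points in control and fell by 87.0 points in KO. Its cultured values were only 4.93 to 6.05 units in control and 4.37 to 4.42 units in KO. On these arrays 53.9% to 54.3% of probe sets read under 10 units, so small differences in units move the rank far. Krt6a rose by 16.5 points in control and by 10.2 points in KO, while Krt6b rose by 32.6 and 34.7 points. Krt1 fell by 71.1 points in control (adjusted p = 0.00162) and fell by 53.6 points in KO (adjusted p = 0.00763, limma). Whether these shifts differed between the genotypes was not tested on the rank scale.

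Other keratin lists were set beside the members. The counts are of genes past the adjusted threshold on ranks (limma), against the 43.6% of all probe sets called lower and 46.2% called higher in culture. Of the other epithelial keratins, 12 of 16 matched genes were called lower and 3 were called higher, with a median rank difference of -19.8 points against 0.358 over all probe sets. Krt79, a keratin of the follicle's upper canal, fell from a mean percentile of 99.6 to 19.7 (adjusted p = 4.66e-12), and Krt18, a simple-epithelial keratin, rose from 50.2 to 85.1 (adjusted p = 1.97e-06, limma). Other simple-epithelial keratins were mixed: Krt7 fell from 64.6 to 27.4 and Krt8 from 54.2 to 25.9, while Krt19 rose from 25.3 to 45.9. Krt19 was dim in both conditions, at 26.8 to 33.4 units on the fresh arrays and 6.19 to 13.8 units on the cultured arrays, so its rise is one among low signals. Of the hair follicle sheath keratins, 5 of 8 were called lower and 0 higher, and of the hair shaft keratins 11 of 12 were called lower and 0 higher. Their fresh levels were uneven. The summed shaft keratins were 1550 and 1324 units in fresh control, 873 on fresh KO replicate 1 and 23306 on fresh KO replicate 2. The keratin filament partners are a mixed list of genes that anchor or bundle the filaments and of others, such as Sfn and Csnk1a1. Of this list, 15 of 20 were called lower and 3 called higher (Sfn, Fam83h and Pkp2), with a median of -2.20 points. Of the genes often induced together with the stress keratins, 11 of 14 were called higher and 2 called lower, with a median of 19.9 points.

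Within cultured keratinocytes, KO and control were compared to see whether loss of RhoA went with a change of keratins. Stress keratins had higher mean log2 intensities in KO, led by Krt6b at 4.59-fold and Krt16 at 2.17-fold. The pair of basal keratins differed by less than the spread between arrays, and Krt10 was 1.39-fold higher. Folds are log2 changes turned back to the linear scale and not ratios of the mean intensities. No member passed an adjusted p of 0.05 (limma, 13 of the 15 probe sets and 8 of the 10 genes tested). The background in this comparison was 0.273% of the 22682 probe sets tested. At an unadjusted p under 0.05, 3 of the 8 genes were reached, Krt10, Krt6b and Krt16, all higher in KO, against 15.6% of all probe sets in either direction and 7.16% higher in KO. The same 3 genes did not overlap between groups, against 22.3% of all probe sets. The median change over the tested members was 0.51 on the log2 scale and that over all probe sets was -0.01.

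Krt6b, a type II keratin of wounded and follicular epithelium, read 4629, 1790.5 and 1796 units on the control arrays and 12558, 12482 and 9203 units on the KO arrays. All KO arrays were above all control arrays, and control replicate 1 was well above the other control arrays. The means were 2739 ± 1637 (SD, n = 3) and 11414 ± 1915 (SD, n = 3), a log2 change of 2.20 (SE 0.40, 95% interval 1.22 to 3.18, adjusted p = 0.109, limma). Krt16, the usual type I partner of the Krt6 proteins, read 23973, 8886 and 9133 units in control and 31062, 25969 and 24676 units in KO. The groups did not overlap, but control replicate 1 lay close to KO replicate 3. The log2 change was 1.12 (SE 0.40, 95% interval 0.14 to 2.10, adjusted p = 0.273, limma).

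Krt17 read 36031, 18019 and 19467 units in control and 41697, 32796 and 33179 units in KO. Control replicate 1 lay above 2 of the KO arrays, so the groups overlapped. The log2 change was 0.61 (SE 0.28, 95% interval -0.07 to 1.30, adjusted p = 0.355, limma). The second probe set of Krt17 was dim, at 31.1 to 59.99 units in control and 59.8 to 96.6 units in KO, and it gave a larger change of 0.92 (SE 0.32, adjusted p = 0.264, limma) in the same direction. Krt6a read 59088, 51736 and 53386 units in control and 62056, 57606 and 58875 units in KO. Its groups overlapped and the change was 0.12 (SE 0.06, 95% interval -0.03 to 0.27, adjusted p = 0.389, limma), with 0.14 and 0.13 on the other Krt6a probe sets. Krt6a and Krt6b are close paralogs whose coding sequences are alike, so signal can be shared between their probe sets, above all the Krt6a probe set marked as cross-hybridising in its name. The change was 2.20 on the Krt6b probe set and 0.12 to 0.14 on the Krt6a probe sets.

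The sum of fibroblast markers, also higher on all cultured KO arrays, moved with Vim, which read 23.1 to 65.0 units in control and 72.0 to 145 units in KO. The fibroblast genes Col1a1, Col1a2, Col3a1, Dcn and Lum read 3.96 to 7.07 units on all 6 cultured arrays, below the arrays' medians. Melanocyte markers also moved with this comparison: their summed levels overlapped, but 3 of the 5 genes tested were higher in KO at an unadjusted p under 0.05 (none called, median log2 change 1.29), and their part in the keratin values was not tested. Control replicate 1 was the highest control array for all 4 stress keratins in culture. The mean log2 distance of the 4 genes from the control mean was 0.65 on control replicate 1, -0.35 on replicate 2 and -0.30 on replicate 3, against 1.17, 0.99 and 0.88 on the KO arrays. Without control replicate 1, Krt6b changed by 2.66 (adjusted p = 0.0274, limma) and Krt16 by 1.59 (adjusted p = 0.0383, limma), and both were then called. These calls rest on leaving out 1 array that was singled out after its values were seen, and with array weights, which use all 6 arrays, Krt6b passed (2.38, adjusted p = 0.037, limma) and Krt16 did not.

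**Figure D2:**
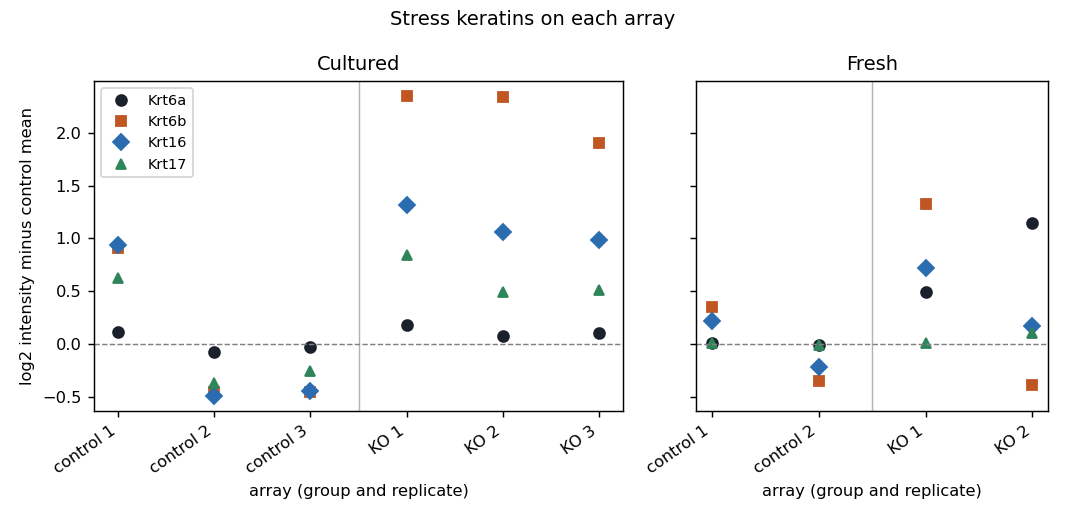
Log2 intensity of Krt6a, Krt6b, Krt16 and Krt17 minus the control mean of their condition (vertical axis) on each cultured and fresh array (horizontal axis), 1 point per gene and array, with the control mean dashed at 0. The mean over the 4 genes is 0.88 to 1.17 on cultured KO arrays and 0.65 on cultured control replicate 1, and on fresh KO arrays Krt6b and Krt16 are highest on replicate 1 and Krt6a on replicate 2.

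Among suprabasal keratins in culture, Krt10 read 522, 426 and 428 units in control and 712, 581 and 613 units in KO. All KO arrays were above all control arrays, with means of 459 ± 54.7 and 636 ± 68.2 (SD, n = 3 each). The log2 change was 0.47 (SE 0.13, 95% interval 0.15 to 0.79, adjusted p = 0.191, limma). Krt1 was scattered, at 18.7, 4.30 and 4.53 units in control and 26.7, 8.23 and 5.13 units in KO. The arrays numbered 1 were the highest of both groups, which overlapped, and the change of 0.54 had an error larger than itself (SE 0.82, 95% interval -1.47 to 2.55, adjusted p = 0.79, limma). Krt77 was at 4.93 to 6.05 units in control and 4.37 to 4.42 units in KO, below the array's median on all 6 arrays, and was not tested.

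Of the basal keratins in culture, Krt5 read 55479, 46739 and 49082 units in control and 51934, 51269 and 51435 units in KO. The KO values lay inside the control range, and the log2 change was 0.04 (SE 0.07, 95% interval -0.13 to 0.20, adjusted p = 0.842, limma). Krt14 read 59207, 49453 and 52296 units in control and 56269, 54471 and 55903 units in KO, again inside the control range. Its change was 0.05 (SE 0.07, 95% interval -0.12 to 0.23, adjusted p = 0.749, limma). Together the 2 intervals reach from -0.13 to 0.23 on the log2 scale. The other bright Krt14 probe set gave 0.07 and the dim one -0.22 (adjusted p = 0.462, limma). Krt15 was at 3.76 to 4.38 units in control and 3.81 to 4.69 units in KO, below the median on all 6 arrays, and was not tested.

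**Figure D3:**
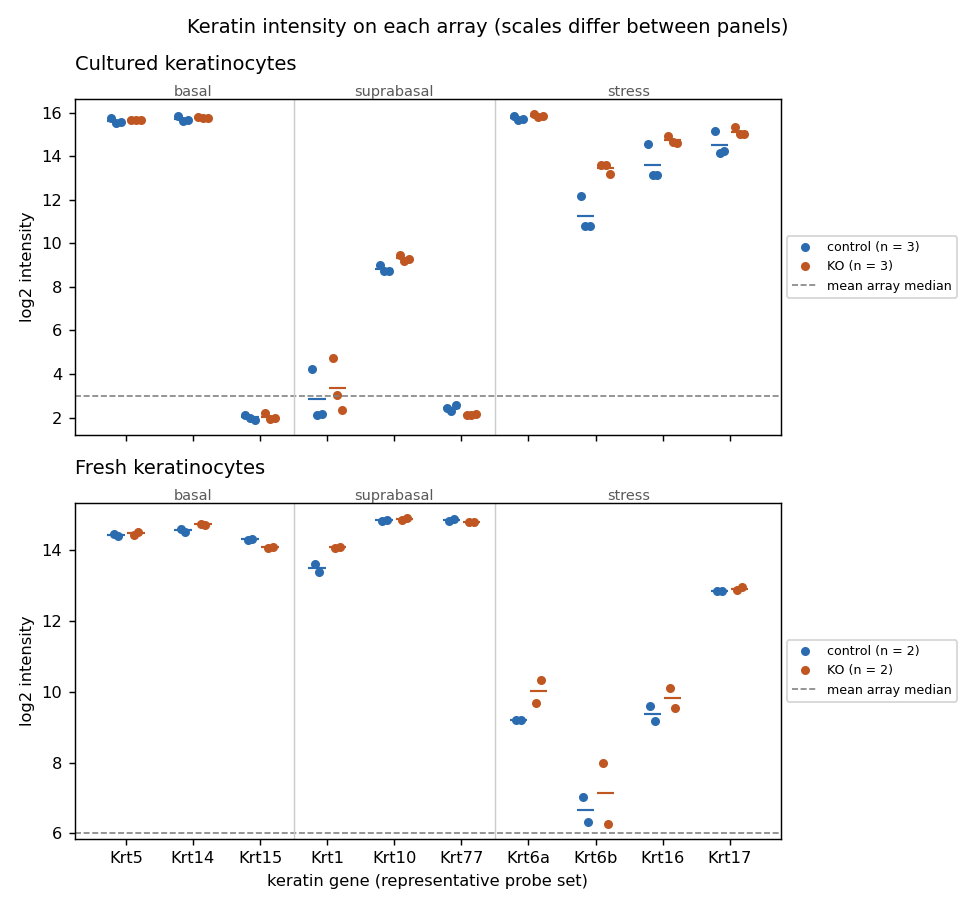
Log2 intensity of the probe set standing for each member (vertical axis) on each array, control and KO, with fresh and cultured arrays in panels of their own, since their scales differ; each point is 1 array, short bars are group means and the dashed line is the mean of the arrays' medians. In culture Krt6b and Krt16 are higher on all KO arrays than on all control arrays, and Krt5 and Krt14 overlap.

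In freshly isolated keratinocytes the question was the same, with 2 arrays a group. From the log2 changes, Krt1 was 1.51-fold higher and Krt6a 1.76-fold higher on the arrays labelled KO. Krt14 had a slightly higher and Krt15 a slightly lower mean, and Krt10 and Krt77 lay close together in both groups. No member passed an adjusted p of 0.05, and neither did any other probe set (0% of 22893, limma). At an unadjusted p under 0.05, 4 of the 10 genes were reached (Krt14, Krt15, Krt1 and Krt6a) against 12.9% of all probe sets, and 3 of them were higher in KO against 6.01%. Of the 10 genes, 7 did not overlap, 5 higher and 2 lower in KO, against 46.9% of all probe sets, a share that is high with 2 arrays a group. The median change was 0.11 over the members and -0.00 over all probe sets. On the same KO arrays the sums of Langerhans cell and myeloid markers and of sebaceous markers were lower, and those of fibroblast and melanocyte markers higher, each without overlap. Single genes did not all follow these sums. All 8 Langerhans cell and myeloid genes tested had lower values. Against their sums went 1 of 2 sebaceous genes (Elovl3), 1 of 4 fibroblast genes (Vim) and 1 of 6 melanocyte genes (Mitf). The part of these markers in the keratin values was not tested.

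Krt1 read 12360 and 10562 units on the fresh control arrays and 16933 and 17555 units on the fresh KO arrays. Both KO arrays were above both controls and the KO pair lay close together. The means were 11461 ± 1272 and 17244 ± 440.4 (SD, n = 2 each), a log2 change of 0.59 (SE 0.09, 95% interval 0.38 to 0.81, adjusted p = 0.242, limma). Its partner Krt10 read 29043 and 29412 units in control and 29537 and 30458 units in KO, higher without overlap by 0.04 (SE 0.04, 95% interval -0.07 to 0.14, adjusted p = 0.737, limma). Krt77 read 28998 and 30144 units in control and 28544 and 28478 units in KO, lower without overlap, with a change of -0.05 (SE 0.04, adjusted p = 0.644, limma). Krt10 and Krt77 stood at 87.3% to 93.6% of the brightest value on their arrays, close to the top of the scale, and Krt1 stood at 32.5% to 53.8%. Whether the top of the scale limited the differences of Krt10 and Krt77 was not tested.

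Among the fresh basal keratins, Krt15 read 20050 and 20241 units in control and 17211 and 17436 units in KO. The pairs did not overlap and each lay close together, with means of 20145 ± 135 and 17323 ± 159 (SD, n = 2 each). The log2 change was -0.22 (SE 0.05, 95% interval -0.33 to -0.10, adjusted p = 0.276, limma). Krt14 read 24783 and 23470 units in control and 27346 and 26755 units in KO, higher without overlap by 0.17 (SE 0.05, 95% interval 0.04 to 0.29, adjusted p = 0.317, limma), and its second bright probe set gave 0.21 (adjusted p = 0.331). The type I keratins of the basal layer thus read in opposite directions, neither past the threshold. Krt5 read 22392 and 21546 units in control and 22041 and 23502 units in KO. These overlapped, with a change of 0.05 (SE 0.05, 95% interval -0.09 to 0.19, adjusted p = 0.719, limma).

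Among the fresh stress keratins, Krt6a read 591 and 586 units in control and 826 and 1299.5 units in KO, and the highest value was on KO replicate 2, the array with the hair follicle transcripts. The log2 change was 0.82 (SE 0.22, 95% interval 0.26 to 1.38, adjusted p = 0.308, limma), and the other Krt6a probe sets gave 0.76 and 0.56 without overlap. Krt6a is also made in the hair follicle's companion layer. Krt75, a companion layer keratin, read 65.8 and 75.6 units in control, 88.7 units on KO replicate 1 and 488 units on KO replicate 2, and Krt25, an inner root sheath keratin, read 282 and 74.7 units, then 62.2 and 10946 units. Krt6a was above both controls on KO replicate 1 too, where the summed sheath keratins were below both controls. The part of the follicle transcripts in the Krt6a values was not tested.

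Krt6b read 129.6 and 79.7 units in fresh control and 254 and 77.6 units in fresh KO, and Krt16 read 772 and 573 units in control and 1098 and 749.8 units in KO. Both had their highest value on KO replicate 1 and both overlapped. Their changes were 0.47 (SE 0.58, 95% interval -0.995 to 1.93, adjusted p = 0.763) and 0.45 (SE 0.23, 95% interval -0.14 to 1.04, adjusted p = 0.48), both by limma. Krt17 read 7410 and 7314 units in control. Its KO arrays gave 7428 and 7894 units, higher by 0.06 (SE 0.06, adjusted p = 0.734, limma), while its dim second probe set gave -0.10. Leaving out KO replicate 1 turned the sign of Krt6b (-0.39) and brought Krt1 (0.62, adjusted p = 0.0361) and Krt6a (1.14, adjusted p = 0.0121, limma) past the threshold, together with 945 probe sets in all. With that array out, the KO arm is the 1 array with the follicle transcripts, assumed to vary like the controls.

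**Figure D4:**
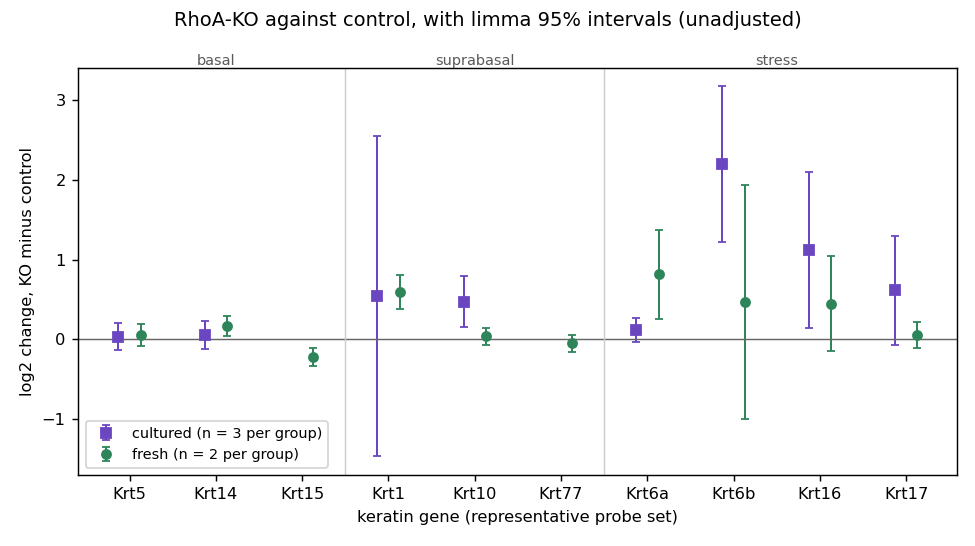
Log2 change of KO against control for each member (vertical axis, log2 units) in cultured and fresh cells, with unadjusted 95% intervals from limma as bars; members below the filter in culture have no cultured value. The cultured interval of Krt6b runs from 1.22 to 3.18 and that of Krt1 from -1.47 to 2.55, and no member passed the adjusted threshold.

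The change in cultured cells was set against that in fresh cells for the 8 members tested in both. The values differed most for Krt6b (2.20 and 0.47), Krt6a (0.12 and 0.82), Krt16 (1.12 and 0.45) and Krt17 (0.61 and 0.06). None of the 8 passed the test of the difference, against 0.879% of the 18773 probe sets tested. At an unadjusted p under 0.05, 3 of 8 were reached against 17.8% of all probe sets: Krt6b with a difference of 1.73 (95% interval 0.16 to 3.31, adjusted p = 0.243), Krt10 with 0.43 (95% interval 0.11 to 0.76, adjusted p = 0.172) and Krt6a with -0.69 (95% interval -1.25 to -0.13, adjusted p = 0.205), by the combined limma fits. Krt5 and Krt14 gave -0.02 (95% interval -0.21 to 0.17) and -0.11 (95% interval -0.30 to 0.08). Single arrays decided calls here too. Without cultured control replicate 1, the difference of Krt17 was 0.87 (adjusted p = 0.0339). Without fresh KO replicate 1, the fresh KO arm is only the array with the follicle transcripts. The differences were then 2.59 for Krt6b and -1.02 for Krt6a. Krt6a stood at 43.2% to 52.9% of the brightest value on the cultured arrays and at 1.80% to 3.98% on the fresh arrays. The part of its level in the difference was not tested.

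By class, the 4 stress keratins were higher in KO in culture in 4 of 4 (median log2 change 0.87) and in fresh cells in 4 of 4 (median 0.46), where 47.2% and 49.9% of all probe sets had a value above 0. In each condition 2 of the 4 did not overlap: Krt6b and Krt16 in culture, against 10.1% of probe sets, and Krt6a and Krt17 in fresh cells, against 23.5%. The basal keratins had medians of 0.04 in culture (2 tested) and 0.05 in fresh cells (3 tested), and the suprabasal keratins 0.51 (2 tested) and 0.04 (3 tested). The members were chosen with these data known, so a class is described by its counts and not tested.

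Of the genes often induced with the stress keratins, 12 of 14 tested had a higher value in cultured KO and 2 a lower one (median 0.69). Of these genes 2 passed. Over all probe sets, 47.2% had a value above 0 and 0.273% passed. The list was chosen with earlier results of these data known, so its counts are a description. The 2 that passed were S100a8 and S100a9, the subunits of calprotectin, an antimicrobial protein complex of stressed epidermis. S100a8 read 1672, 1715 and 2369.6 units in control and 6123, 7277 and 6957 units in KO, with no overlap and a log2 change of 1.84 (SE 0.15, adjusted p = 0.0358, limma). S100a9 read 701, 917 and 851 units in control and 3032, 4862 and 3440.0 units in KO and rose by 2.18 (SE 0.20, adjusted p = 0.0386, limma). Cultured control replicate 1, the highest control array for Krt6b and Krt16, was the lowest one for both. Both calls were lost when any array other than KO replicate 1 was left out, and over all settings the adjusted p ran from 0.0147 to 0.186 for S100a8 and from 0.00480 to 0.198 for S100a9. In fresh cells, 9 of 13 had a higher value and 4 a lower one (median 0.75), none called, against 49.9% of all probe sets above 0. Sprr1b, a cornified envelope precursor, read 214 and 96.3 units in fresh control and 908 and 819 units in fresh KO (2.59, SE 0.37, adjusted p = 0.242, limma).

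None of the other epithelial keratins passed in either condition (5 tested in culture and 10 in fresh cells). The smallest p values in fresh cells were those of Krt79, with a mean of 12311 ± 1201 in control against 16611 ± 569 in KO (0.44 on the log2 scale, adjusted p = 0.274), Krt23, at 1751 ± 497 and 817 ± 28.6 (-1.07, adjusted p = 0.274), and Krt80, at 6511 ± 749.7 and 4344 ± 518 (-0.58, adjusted p = 0.276), with SD over 2 arrays a group and limma for each p. All 7 hair follicle sheath keratins tested in fresh cells had a higher value in KO, with a median of 2.14 and none called. Their summed intensity was high on KO replicate 2 alone. Among the keratin filament partners, 13 of 20 tested had a higher and 7 a lower value in cultured KO (median 0.03), and 9 and 10 of 19 in fresh KO, none called. Of all probe sets, 47.2% in culture and 49.9% in fresh cells had a value above 0. Flg, the filaggrin that bundles keratin filaments in the granular layer, read 76.6, 175 and 295 units in cultured control and 424, 1773 and 1456 units in cultured KO (2.70, SE 0.71, adjusted p = 0.181, limma). Evpl, the envoplakin that joins filaments to the cornified envelope, was lower in cultured KO without overlap (-0.61, SE 0.13, adjusted p = 0.131, limma).

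**Figure D5:**
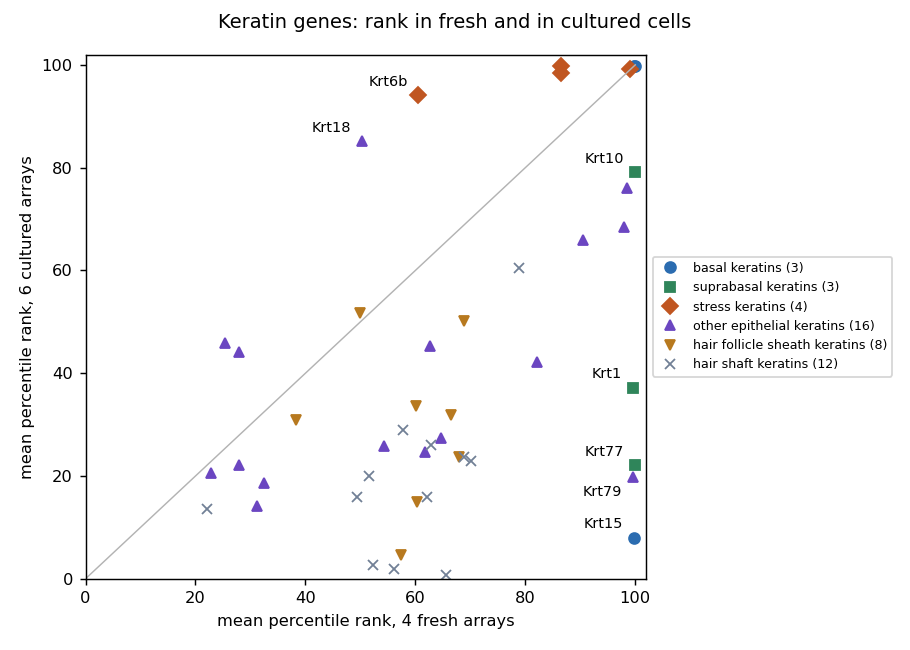
Mean percentile rank of each matched keratin, member or not, over the 4 fresh arrays (horizontal axis) and the 6 cultured arrays (vertical axis), 1 point per gene with a colour and symbol per list and a line of equal rank. Krt5, Krt14 and Krt17 lie near 100 on both axes, Krt79 falls from 99.6 to 19.7, and Krt18 rises from 50.2 to 85.1.

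For each member kept in both conditions, the 2 genes with the most similar pattern were found among 9801 genes, by Pearson's correlation over the 10 arrays after centring log2 intensity within each condition. These correlations are descriptions over arrays that share groups and processing. Krt6b was nearest to Meak7 (0.96) and Arrdc4 (0.96), Krt16 to Abcg2 (0.99) and Arl14ep (0.96), Krt17 to Mmachc (0.97) and Sparc (0.97), and Krt6a to Bdh1 (0.97) and Tspan13 (0.96). Krt10 was nearest to Csnk1a1 (0.97) and Nop14 (0.96) and Krt1 to Plekha5 (0.96) and Irak3 (0.96). Krt5 was nearest to Porcn (0.96) and Mark3 (0.96), and Krt14 to Mrps16 (0.95) and Pafah1b1 (0.94). Between members, the closest pairs by the same measure were Krt16 with Krt6b (0.94), Krt16 with Krt17 (0.93) and Krt10 with Krt17 (0.92), and the basal pair Krt5 and Krt14 stood at 0.83. Some of these rest on the cultured arrays: Krt16 with Krt17 stood at 0.99 over the 6 cultured and 0.09 over the 4 fresh arrays, and Krt1 with Plekha5 at 0.996 and 0.241.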

How the data were processed

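Intensities of all 45037 probe sets were taken as deposited by the authors, on a linear scale, with a single value per array. The submitters' processing notes name MAS5; for its version, settings and scaling, the sources used here give nothing. Probe sets were named by the platform annotation, with symbols updated through gene identifiers in RefSeq's mouse table (GRCm38.p6). 34945 probe sets had 1 symbol, 932 several and 9160 none. The probe set with the highest mean log2 intensity over the 10 arrays stood for a gene.

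Log2 intensities, with no offset, were fitted by limma 3.58.1 in R 4.3.3 (lmFit, eBayes with trend) in each condition alone, keeping probe sets that exceeded the median of 2 or more of that condition's arrays, with Benjamini-Hochberg adjustment over all kept probe sets and a threshold of 0.05. The difference of the KO effects used both fits, with combined moderated standard errors and Satterthwaite degrees of freedom. Ranks were fitted over all 4 groups. SD and SE refer to arrays, and all tests are two-sided. Correlations of log2 intensity between arrays of a group were 0.988 to 0.998, and no array was a copy of another. The scripts were tested on simulated data. Genes outside the members were named if called, and otherwise at most the 3 with the smallest p of a list. The members and lists were chosen with earlier results of these data known. Alternatives were the centring, quantile normalization, filters, variance models, an added 16 units, the mean over probe sets, 1 fit over all arrays, the replicate number as a block, other rank scales and each array left out.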

Additional observations from a re-analysis of the deposited data

Results flagged for a closer look

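A difference between conditions marked 2 genes outside the members, both from lists set beside them. Dst, which encodes the BPAG1 protein that anchors keratin filaments at the hemidesmosome, read 11863, 9075 and 10325 units in cultured control, 13785, 12717 and 13045 units in cultured KO, 7426 and 8271 units in fresh control and 6272 and 6355 units in fresh KO. Its KO values were higher without overlap in culture (log2 change 0.35, adjusted p = 0.216, but 0.048 with the probe sets of Dst averaged, adjusted p = 0.849) and lower without overlap in fresh cells (-0.31, adjusted p = 0.289). The difference of 0.66 passed the test of the difference itself (adjusted p = 0.0479, limma), a call lost with no filter (adjusted p = 0.0617), in 1 fit over all arrays (adjusted p = 0.0964) and when any single array other than cultured control replicate 1 or fresh KO replicate 1 was left out. Over all settings its adjusted p ran from 0.0133 to 0.229, and with single arrays left out the difference ran from 0.56 to 0.76. Mmp9, a matrix protease of wounds, moved in opposite directions without overlap, though in culture only narrowly. It read 37.71, 49.75 and 59.71 units in cultured control and 67.46, 93.2 and 59.89 units in cultured KO, so the arrays numbered 3 nearly touched. The means were 49.1 ± 11.0 and 73.5 ± 17.5 (SD, n = 3 each). In fresh cells Mmp9 had means of 289 ± 23.5 in control and 137 ± 82.6 in KO (SD, n = 2 each). Its difference of 1.80 did not pass (adjusted p = 0.12, limma). With single arrays left out this difference ran from 1.14 to 2.46. The highest value came without fresh KO replicate 1, which leaves a single fresh KO array. The groups, of 2 and 3 arrays, are too small for a test of single outlying arrays. All fresh values compare arrays by their labels, and Rhoa was not lower on the fresh arrays labelled KO.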

How the results depend on the processing

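No member was called in any comparison of KO with control or of their difference under 75th percentile centring, quantile normalization, no filter, the stricter filter, no trend, the added 16 units, the mean over probe sets or the fit over all 10 arrays, as far as each was run. Array weights called 1 member in culture. Leaving out single arrays gave 0 to 2 called members in culture, 0 to 2 in fresh cells and 0 to 2 for the difference. Averaging the probe sets of a gene turned Krt14 in culture to -0.033 and Krt17 in fresh cells to -0.022. Over single arrays left out, changes that turned sign ran from -0.018 to 0.11 for Krt5, from -0.0027 to 0.13 for Krt14 and from -0.14 to 1.24 for Krt1 in culture, and from -0.39 to 1.32 for Krt6b in fresh cells. The differences ran from -0.069 to 0.055 for Krt5 and from -0.73 to 0.64 for Krt1, and the rank difference of Krt17 from -0.095 (without cultured control replicate 1) to 0.136.

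Over all probe sets, the 62 calls in culture became 128 with 75th percentile centring, 2 with no filter, 154 with the stricter filter, 7 with no trend, 299 with array weights, 547 in 1 fit over all 10 arrays and 0 to 95 with single arrays left out. The 0 calls in fresh cells (limma, 2953 at an unadjusted p under 0.05) became 447 in 1 fit over all 10 arrays and 0 to 945 with single arrays left out. The 165 calls of the difference became 289 with 75th percentile centring, 78 in 1 fit over all 10 arrays and 2 to 1302 with single arrays left out. The cause was not tested. The Krt14 rank call was lost with no trend (adjusted p = 0.527). Normal scores of the rank brought Krt5 past the threshold (adjusted p = 0.00039). Low signals near the background limit what can be said of Krt15, Krt77 and Krt1 in culture.

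The labels do not say whether the replicate number pairs the samples, and the values do not settle it. Deviations of same-numbered cultured arrays correlated at 0.32, 0.08 and 0.25. Control replicates 1 and 3 correlated best with the KO array of their own number, and control replicate 2 with KO replicate 3 (0.17). With the replicate number as a block, 0 members were called in either condition or for the difference and 7 by rank, while calls over all probe sets were 17 in culture, 0 in fresh cells and 289 for the difference.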
